A study of Mus musculus with 6 samples.

Results

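Senescent mouse embryonic fibroblasts that received α-amyrin were set against senescent fibroblasts that received vehicle. The pair is 2 of the 6 libraries of the series, 1 library a side. Of the 55487 genes in the count table, 11902 reached at least 5 CPM (counts scaled to a library size common to all libraries) in at least 1 library of the pair, and these are called expressed here. All cells were primary fibroblasts of wild-type mouse embryos (MEFs). The α-amyrin cells at passage 6 (P6), labelled senescent, received 20 µM α-amyrin for 3 days, and the P6 vehicle cells received the vehicle, which the labels do not name. The remaining libraries, used here for context, were P6 cells given 20 µM β-amyrin and the same 3 conditions at passage 1 (P1), labelled non-senescent. The α- and β-amyrins are isomeric plant triterpene alcohols of the ursane and the oleanane type, whose methyl groups on ring E sit differently. Every condition had 1 library, so no difference below has a replicate check and no p-value is given. A compound effect and a difference between 2 cultures cannot be told apart. The labels do not say whether P6 and P1 cells came from the same embryos.

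Cholesterol is made from acetyl-CoA through the mevalonate pathway to squalene, and from squalene through lanosterol to cholesterol. The genes of these enzymes are controlled together by SREBP2, a membrane-bound transcription factor that is cut free and enters the nucleus when sterol in the endoplasmic reticulum is low. INSIG proteins hold it back when sterol is plentiful, and LXR receptors, activated by oxidised sterols, drive cholesterol export instead. The integrated stress response acts through the transcription factor ATF4 and raises genes such as Trib3, Chac1 and Ddit3. MEFs in standard culture stop dividing after a few passages, with high levels of the cell-cycle inhibitor p16, encoded by Cdkn2a.

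The P6 α-amyrin library held 18798418 counts, the fewest of the 6, against 23826025 in the P6 vehicle library. The other 4 libraries held 25077506 to 28752332 counts. Fibroblast markers summed to 56044 CPM in P6 α-amyrin and 62128 CPM in P6 vehicle, and none of the 20 was at 0. Fn1 alone held 28955 and 30105 CPM of these sums. Of the 19 expressed fibroblast markers, 11 were higher in P6 α-amyrin and 8 lower, with a median log2 ratio over P6 vehicle of 0.09. Of the 22 macrophage markers, which summed to 6534 CPM in P6 α-amyrin and 6355 CPM in P6 vehicle, only Cd163 was at 0 in either library. In the P6 β-amyrin library they summed to 5084 CPM, and in the 3 P1 libraries to 113 to 518 CPM. RNA of a macrophage-like kind was therefore measured in both cultures of the pair, and its part in the results below was not tested. The median log2 ratio of P6 α-amyrin over P6 vehicle was 0.07 for genes with the shortest transcripts and -0.03 for those with the longest, when genes were split into 5 bins by the length of the longest transcript. In bulk RNA, fewer cells of a type and less RNA per cell cannot be told apart.

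Most of the transcriptome was close to even between the 2 libraries. Genes of cholesterol and fatty acid synthesis, sterol sensing and uptake were 16 of the 29 genes at least 2-fold lower with α-amyrin. The 14 genes at least 2-fold higher held 4 pseudogenes and 1 stress gene, Trib3. A gene was counted by size when its scaled ratio, with 2 counts added to each library, passed the named fold. By this rule 14 of 11902 expressed genes (0.118%) were at least 2-fold higher in P6 α-amyrin than in P6 vehicle, and 29 (0.244%) were at least 2-fold lower. At 1.5-fold the counts were 92 higher (0.773%) and 111 lower (0.933%). The median log2 ratio of all expressed genes was 0.02. Intervals given below are exact 95% intervals from the 2 counts and cover counting error only, not variation between cultures.

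**Figure D1:**
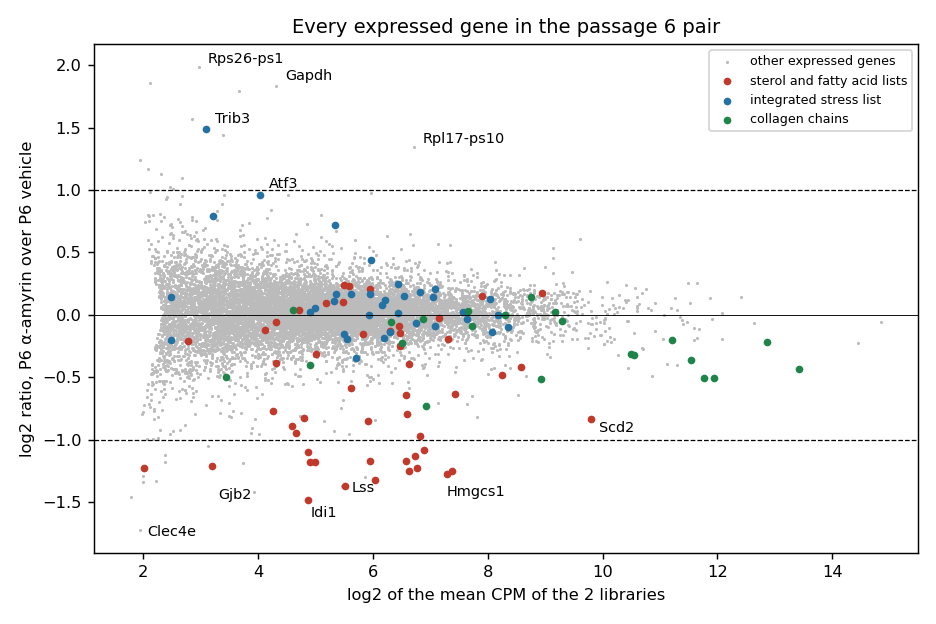
Log2 ratio of P6 α-amyrin over P6 vehicle (vertical) against the log2 mean CPM of the 2 libraries (horizontal) for 11902 expressed genes, 1 point a gene, with dashed lines at 2-fold. Many points of the sterol and fatty acid lists (red) lie near or below the lower line, and the abundant collagen chains (green) sit a little below 0. Of 35 integrated stress genes (blue), with a median of 0.08, 4 were at least 1.5-fold higher, among them Trib3 at 1.49.

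Of the 29 genes at least 2-fold lower, 16 belonged to the lists of sterol enzymes, sterol sensing and uptake, and fatty acid synthesis, which hold 50 of the 11902 expressed genes (0.42%). Among the 21 expressed sterol enzyme genes, 17 were at least 1.5-fold lower, 11 were at least 2-fold lower and none was at least 1.5-fold higher. Their median log2 ratio was -1.13. In the mevalonate pathway, Hmgcs1 encodes the synthase that makes HMG-CoA. Hmgcs1 (mm10 chromosome 13, 119690379 to 119708260) had 91.2 CPM in P6 α-amyrin and 90.8 CPM in P6 β-amyrin, against 221 CPM in P6 vehicle, and 536, 480 and 593 CPM in P1 α-amyrin, P1 β-amyrin and P1 vehicle. The log2 ratio of P6 α-amyrin over P6 vehicle, meant by every ratio below unless another pair is named, was -1.27 (interval -1.35 to -1.20). Both amyrin libraries at P6 thus lay below every other library for this gene. Idi1, the isopentenyl diphosphate isomerase, gave the largest difference of the pathway. Idi1 stood at 15.4 CPM in P6 α-amyrin and 14.2 CPM in P6 β-amyrin, against 43.2 CPM in P6 vehicle, and at 109, 96.7 and 116 CPM in P1 α-amyrin, P1 β-amyrin and P1 vehicle. The pair had a log2 ratio of -1.48 (interval -1.68 to -1.30). Acat2 (-1.18), Mvd (-0.94) and Mvk (-0.83) were also lower, whereas Pmvk (-0.21) and Ggps1 (0.10) stayed within 1.5-fold. Fdps, the farnesyl diphosphate synthase, was counted at only 1.70 CPM in P6 α-amyrin and 3.93 CPM in P6 vehicle and so was not among the expressed genes.

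From squalene onwards, all 13 expressed genes had a ratio below 0 and 11 were at least 1.5-fold lower. Sqle, the squalene epoxidase and a second control point of the pathway, had 66.9 CPM in P6 α-amyrin and 59.97 CPM in P6 β-amyrin, against 146 CPM in P6 vehicle, and 241, 230 and 296 CPM in P1 α-amyrin, P1 β-amyrin and P1 vehicle. Its log2 ratio was -1.13 (interval -1.22 to -1.04). Lss, which folds the epoxide into lanosterol, had 25.3 CPM in P6 α-amyrin and 23.3 CPM in P6 β-amyrin, against 65.7 CPM in P6 vehicle, and 187, 161 and 224 CPM in P1 α-amyrin, P1 β-amyrin and P1 vehicle. The pair had a log2 ratio of -1.37 (interval -1.53 to -1.23), the lowest of this list. The enzymes that trim lanosterol were lower by similar amounts: Hsd17b7 at -1.33, Msmo1 at -1.25, Cyp51 at -1.23, Tm7sf2 at -1.21 and Nsdhl at -1.18. Sc5d (-0.79), Dhcr7 (-0.77) and Fdft1 (-0.64) passed 1.5-fold. Lbr (-0.32), whose product is both a sterol reductase and a receptor of the nuclear lamina, and Ebp (-0.12) did not. Antisense transcripts inside Hmgcs1 (Gm48342, -1.38) and Lss (4930483K19Rik, -1.18) were lower as well. The sources used here do not say whether reads were counted by strand, so reads of these antisense genes and their partners cannot be told apart.

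Upstream sequence is shown for sterol genes that were lower together and, for contrast, for the stress gene Chac1. The bases come from RefSeq windows on GRCm38.p6, read 5′ to 3′ on the strand of the gene and limited to bases outside the deposited gene interval. Capitals mark each match to CCAAT (written ATTGG where it lies on the other strand), TCACNCCAC, CACGTG or TGANNCAAT, which were searched on both strands and chosen after the expression values were seen.
Hmgcs1, chr13:119690101-119690350 (plus strand): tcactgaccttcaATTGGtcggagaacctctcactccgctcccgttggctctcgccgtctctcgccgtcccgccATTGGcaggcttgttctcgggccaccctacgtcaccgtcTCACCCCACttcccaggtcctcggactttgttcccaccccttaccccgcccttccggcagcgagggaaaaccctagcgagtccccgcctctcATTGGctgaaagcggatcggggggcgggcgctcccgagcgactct
Hsd17b7, chr1:169969242-169969455 (minus strand): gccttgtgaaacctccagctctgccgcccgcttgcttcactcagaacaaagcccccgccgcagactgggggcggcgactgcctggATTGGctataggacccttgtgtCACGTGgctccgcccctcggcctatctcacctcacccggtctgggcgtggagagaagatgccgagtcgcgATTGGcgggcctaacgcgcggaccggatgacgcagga
Insig1, chr5:28071162-28071362 (plus strand): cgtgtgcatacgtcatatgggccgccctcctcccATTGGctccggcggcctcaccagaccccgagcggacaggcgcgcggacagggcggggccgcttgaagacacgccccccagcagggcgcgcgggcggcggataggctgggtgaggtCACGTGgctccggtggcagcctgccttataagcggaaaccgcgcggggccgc
Lss, chr10:76531355-76531587 (plus strand): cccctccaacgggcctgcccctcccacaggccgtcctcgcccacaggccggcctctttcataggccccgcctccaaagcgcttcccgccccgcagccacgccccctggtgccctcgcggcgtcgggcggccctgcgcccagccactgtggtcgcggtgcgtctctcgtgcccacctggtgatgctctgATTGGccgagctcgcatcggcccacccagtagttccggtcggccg
Chac1, chr2:119350992-119351228 (plus strand): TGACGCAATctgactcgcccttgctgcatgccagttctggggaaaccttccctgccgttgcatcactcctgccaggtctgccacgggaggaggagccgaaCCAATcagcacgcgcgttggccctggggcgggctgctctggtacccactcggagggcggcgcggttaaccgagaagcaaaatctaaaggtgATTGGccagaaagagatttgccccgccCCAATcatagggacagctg
Of the 21 expressed sterol enzyme genes, 17 had a window, and 16 of these (94.1%) held CCAAT, the core of NF-Y sites, within 250 bases upstream. The 16 included Ebp, Ggps1, Lbr and Pmvk, whose ratios stayed within 1.5-fold. CCAAT also occurred in 15 of 29 integrated stress genes with a window (51.7%), Chac1 among them. The same letters occurred in 40.4% of the 9005 expressed genes with a window and in 33.8% of all 32851 windows. TCACNCCAC, a form of the sterol regulatory element, was matched in 1 of the 17, Hmgcs1, against 1.22% of expressed genes and 1.05% of all windows. CACGTG was matched in 3 of the 17, against 10.2% of expressed genes and 6.02% of all windows. Hsd17b7 and Insig1 shared the 14-base run gtcacgtggctccg around CACGTG. TGANNCAAT, a form of the element bound by ATF4 with C/EBP proteins, was present in 3 of 29 integrated stress genes with a window (Aars, Chac1 and Nupr1), against 2.17% of expressed genes and 2.71% of all windows. It contains CCAAT wherever its last N is C. A match describes the letters in these windows and is not a measured binding site.

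Sterol uptake and sensing genes gave mixed values. The list of 14 had 6 members at least 1.5-fold lower, 4 of them at least 2-fold, and a median log2 ratio of only -0.05. Insig1, itself a target of SREBP2, had 37.9 CPM in P6 α-amyrin and 33.9 CPM in P6 β-amyrin, against 85.3 CPM in P6 vehicle, and 226, 189 and 247 CPM in P1 α-amyrin, P1 β-amyrin and P1 vehicle. Its log2 ratio was -1.17 (interval -1.30 to -1.05). Stard4, a carrier of sterol between membranes, was at -1.10, Lrp8, a lipoprotein receptor, at -0.89, and Srebf2, which encodes SREBP2, at -0.63. The 8 members within 1.5-fold included Scap (-0.09), the escort protein of SREBP2, Insig2 (0.23), the cholesterol exporter of the lysosome Npc1 (-0.02) and the ubiquitin ligase gene Mylip (0.10), an LXR target.

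The LXR and efflux list had no member past 1.5-fold among 11 expressed, with a median log2 ratio of -0.02. Abca1, the transporter that loads cholesterol onto apolipoproteins, had 212 CPM in P6 α-amyrin and 169 CPM in P6 β-amyrin, against 221 CPM in P6 vehicle, and 30.2, 30.4 and 57.5 CPM in P1 α-amyrin, P1 β-amyrin and P1 vehicle. That gave a log2 ratio of -0.06 (interval -0.12 to 0.00). Apoe was at 0.04. Fatty acid genes were lower to a smaller extent: the median of 15 was -0.39, and Scd1, Scd2 and Fads2 passed 1.5-fold. Scd1, a desaturase that makes oleic acid, had 76.2 CPM in P6 α-amyrin and 74.0 CPM in P6 β-amyrin, against 161 CPM in P6 vehicle, and 345, 322 and 452 CPM in P1 α-amyrin, P1 β-amyrin and P1 vehicle. The ratio came to -1.08 (interval -1.17 to -0.99). Scd2 was at -0.84, Fads2 at -0.85, Elovl6 at -0.58, Acly at -0.48 and Fasn, the fatty acid synthase, at -0.42.

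The sterol enzyme genes as a set were also lower at P6 than at P1. The sensing and uptake list was not, with a median log2 ratio of 0.10 for P6 vehicle over P1 vehicle. The sterol enzymes had a median log2 ratio of -1.19 for P6 vehicle over P1 vehicle, a comparison that uses the same P6 vehicle library. At P1 the α-amyrin library gave a median of -0.17 over vehicle for these 21 genes, with 17 below 0. The P6 β-amyrin library, which is set against the same P6 vehicle library, gave -1.15, and the median of P6 α-amyrin over P6 β-amyrin was 0.10. For Hmgcs1, Idi1, Sqle, Lss and Insig1 the P6 vehicle library stood above both P6 amyrin libraries, which lay close together, and with 1 vehicle library a feature of that culture and a response to amyrin cannot be told apart.

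**Figure D2:**
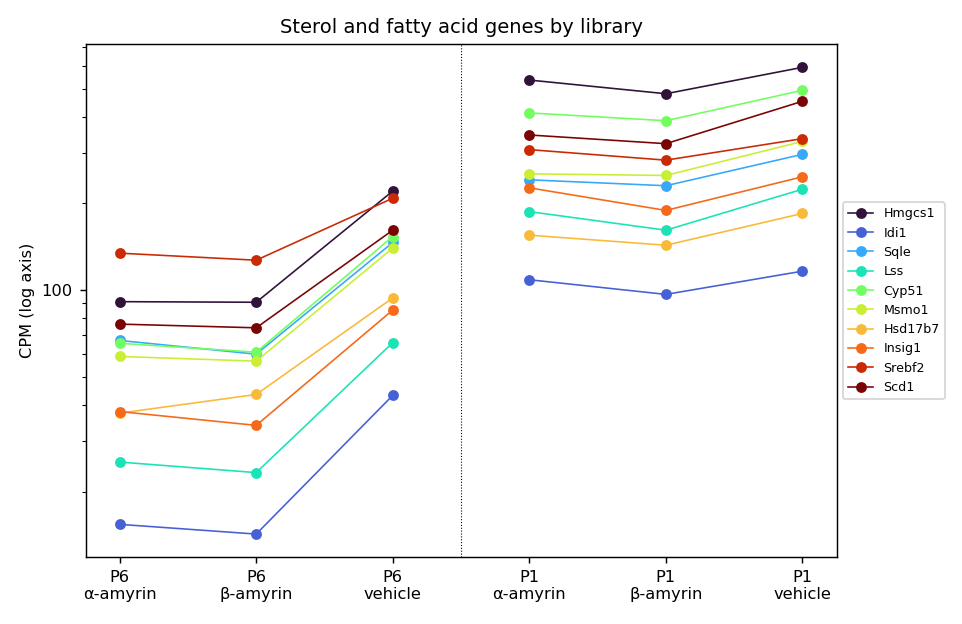
CPM on a log axis of 10 sterol and fatty acid genes in each of the 6 libraries, 1 point a library and 1 line a gene within a passage. The P6 α-amyrin and P6 β-amyrin points lie close together and below P6 vehicle for every gene drawn, as for Hmgcs1 at 91.2 and 90.8 against 221 CPM, and the P1 libraries lie higher with a smaller spread.

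Outside the lipid lists, the genes at least 2-fold lower included Gjb2, which encodes the gap junction protein connexin 26. Gjb2 had 8.28 CPM in P6 α-amyrin and 10.7 CPM in P6 β-amyrin, against 22.2 CPM in P6 vehicle, and 27.3, 48.1 and 64.5 CPM in P1 α-amyrin, P1 β-amyrin and P1 vehicle. Its log2 ratio was -1.42 (interval -1.69 to -1.17) at P6 and -1.24 for P1 α-amyrin over P1 vehicle, and P6 α-amyrin was the lowest of the 6 libraries. Olfm2, an olfactomedin-family glycoprotein, was at -1.46 at P6 and -1.33 at P1, but on 34 counts in P6 α-amyrin and 121 in P6 vehicle. Clec4e, a C-type lectin receptor of myeloid cells, had the lowest ratio of all, -1.72 (interval -2.36 to -1.21), on 33 counts in P6 α-amyrin and 141 in P6 vehicle. Glis1 (-1.29), Afap1l2 (-1.21) and Lrrc75b (-1.05) were below 12 CPM in both libraries of the pair. The membrane glycoprotein gene Parm1 (-0.96) and the kinesin gene Kif26b (-0.85) had 32.5 and 46.7 CPM in P6 α-amyrin, against 63.1 and 84.0 CPM in P6 vehicle, and were picked out after their values were seen.

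Among the higher genes, Trib3 led those with a known stress role. Trib3, a pseudokinase induced by ATF4 and CHOP, had 12.6 CPM in P6 α-amyrin and 15.4 CPM in P6 β-amyrin, against 4.44 CPM in P6 vehicle, and 29.5, 36.8 and 45.5 CPM in P1 α-amyrin, P1 β-amyrin and P1 vehicle. The log2 ratio was 1.49 (interval 1.17 to 1.85) at P6 and -0.62 at P1, and P6 vehicle was the lowest of the 6 libraries. Atf3, a stress-induced transcription factor, had 21.8 CPM in P6 α-amyrin and 26.7 CPM in P6 β-amyrin, against 11.1 CPM in P6 vehicle, and 7.17, 6.96 and 7.21 CPM in P1 α-amyrin, P1 β-amyrin and P1 vehicle. The ratio came to 0.96 (interval 0.74 to 1.20). Chac1, an enzyme that degrades glutathione and whose upstream bases are printed above, was at 0.79 with 11.8 CPM in P6 α-amyrin and 13.1 CPM in P6 β-amyrin, against 6.77 CPM in P6 vehicle. Ddit3, which encodes CHOP, was at 0.72 with 50.4 CPM in P6 α-amyrin and 48.8 CPM in P6 β-amyrin, against 30.6 CPM in P6 vehicle. These 4 were the only members of the 35 expressed integrated stress and amino acid genes past 1.5-fold. They were 11.4% of the list, against 0.773% of all expressed genes at least 1.5-fold higher at P6. The list median was 0.08 at P6, while at P1 it was -0.29 and all 35 lay below 0. Over all 11902 expressed genes 6145 lay below 0 at P1. The amino acid synthesis gene Asns was at -0.14 and Atf4 at 0.21. Unfolded protein response genes of the endoplasmic reticulum (median 0.03 of 25) and cytosolic heat shock genes (median 0.01 of 23) had no member past 1.5-fold.

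**Figure D3:**
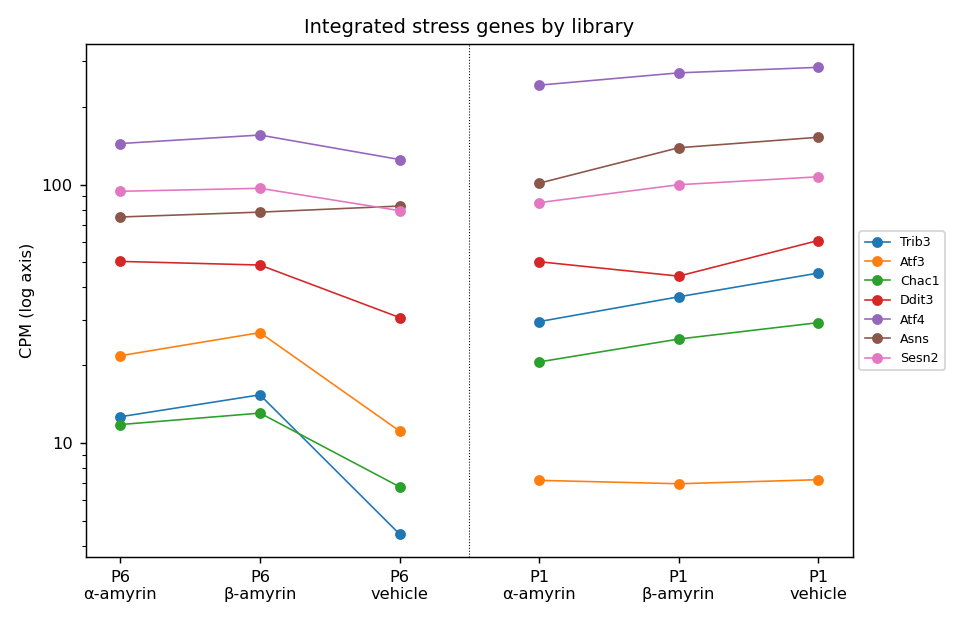
CPM on a log axis of 7 integrated stress genes in each of the 6 libraries, 1 point a library and 1 line a gene within a passage. Trib3, Atf3, Chac1 and Ddit3 are higher in both P6 amyrin libraries than in P6 vehicle, while Asns differs little, and at P1 the α-amyrin points of Trib3, Chac1, Ddit3, Atf4, Asns and Sesn2 lie below those of vehicle.

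Several of the most extreme ratios belonged to genes with near-identical copies, whose reads can be assigned to either copy. Pseudogenes were 4 of the 14 genes at least 2-fold higher (28.6%) and 3 of the 29 at least 2-fold lower, against 227 of 11902 expressed genes (1.91%). Rpl17-ps10 was at 1.35 while its parent Rpl17, a ribosomal protein gene, was at -0.70, and their summed CPM was 258 in P6 α-amyrin and 233 in P6 vehicle. Ndufa12, a respiratory chain subunit gene, was at 0.60 and Ndufa12-ps at -0.83, with a sum of 34.5 CPM in P6 α-amyrin and 35.2 CPM in P6 vehicle. Rps26-ps1 (1.99) and Hspd1-ps3 (1.79) were minor parts of sums whose log2 ratios were 0.15 and 0.05. Rps27rt, at 0.98, belonged to a sum at 0.27. Srp54b (1.44) and Fam177a2 (1.57) lie on chromosome 12, and Srp54b has copies there, with a summed ratio of 0.62 over Srp54a, Srp54b and Srp54c. Gapdh, the glycolytic enzyme gene with many pseudogenes in the mouse, was counted at 31.2 CPM in P6 α-amyrin and 9.43 CPM in P6 β-amyrin, against 8.67 CPM in P6 vehicle, and at 12.1, 21.3 and 46.4 CPM in P1 α-amyrin, P1 β-amyrin and P1 vehicle. The ratio was 1.84 at P6 and -1.93 at P1, and both are uncertain. The remaining genes at least 2-fold higher were below 10 CPM in both libraries of the pair: Gm10767 (1.86, but -0.30 from the deposited FPKM), Tpbgl (1.24), Gm28901 (1.17), the G-protein regulator gene Rgs1 (1.13), Ccdc68 (1.10), Gm9791 (1.02) and Gm32834 (1.01). Among the lower genes, Rpl30-ps10 (-1.34) and Eif3j2 (-1.33) have a more abundant copy, and the sums with Rpl30 and Eif3j1 had ratios of 0.27 and -0.04. Gm28437 (-1.30) and Gm3571 (-1.12) were also at least 2-fold lower.

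Matrix and contractile genes were lower in P6 α-amyrin by small amounts that ran through most members. Of 22 expressed collagen chains, 18 had a ratio below 0, with a median of -0.22, against 5301 of 11902 below 0 and a median of 0.02 over all expressed genes. In the P1 pair 18 were also below 0, with a median of -0.24. Only Col2a1, the cartilage collagen, passed 1.5-fold, at -0.73. Col1a1, the main chain of type I collagen, had 9338 CPM in P6 α-amyrin and 11721 CPM in P6 β-amyrin, against 12622 CPM in P6 vehicle, and 11859, 14229 and 15011 CPM in P1 α-amyrin, P1 β-amyrin and P1 vehicle. The pair had a log2 ratio of -0.43 at P6 and -0.34 at P1, and α-amyrin gave the lowest level within each passage. Col12a1, Col5a2 and Col11a1 were each at -0.51. Of 34 matricellular and adhesive genes 29 were below 0 (median -0.16), and Fndc1 (-0.68), Comp (-0.66) and Aspn (-0.65) passed 1.5-fold. Of 25 contractile genes 22 were below 0 (median -0.17). Acta2, the smooth muscle actin of myofibroblasts, had 1926 CPM in P6 α-amyrin and 2327 CPM in P6 β-amyrin, against 2530 CPM in P6 vehicle, and 2956, 3636 and 3568 CPM in P1 α-amyrin, P1 β-amyrin and P1 vehicle. Its log2 ratio was -0.39, and that of Acta1, the skeletal muscle actin, was -0.71.

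Receptors of matrix and of force followed in part. Itga11, the collagen-binding integrin subunit of fibroblasts, had 288 CPM in P6 α-amyrin and 355 CPM in P6 β-amyrin, against 451 CPM in P6 vehicle, and 111, 154 and 190 CPM in P1 α-amyrin, P1 β-amyrin and P1 vehicle. The pair had a log2 ratio of -0.64 (interval -0.69 to -0.60) at P6 and -0.78 at P1. Piezo2, a stretch-activated ion channel, had 32.6 CPM in P6 α-amyrin and 38.3 CPM in P6 β-amyrin, against 54.7 CPM in P6 vehicle, and 84.7, 104 and 144 CPM in P1 α-amyrin, P1 β-amyrin and P1 vehicle. Its ratio was -0.75 at P6 and -0.77 at P1. In both genes α-amyrin was lowest, β-amyrin intermediate and vehicle highest at each passage. The integrin list as a whole had 12 of 18 members below 0 and only Itga11 past 1.5-fold. Eln, which encodes elastin, was at -0.42, and the elastic fibre list had no member past 1.5-fold. Collagen chains have long transcripts, and their median was -0.20 after each ratio was centred on the median of genes of like transcript length.

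**Figure D4:**
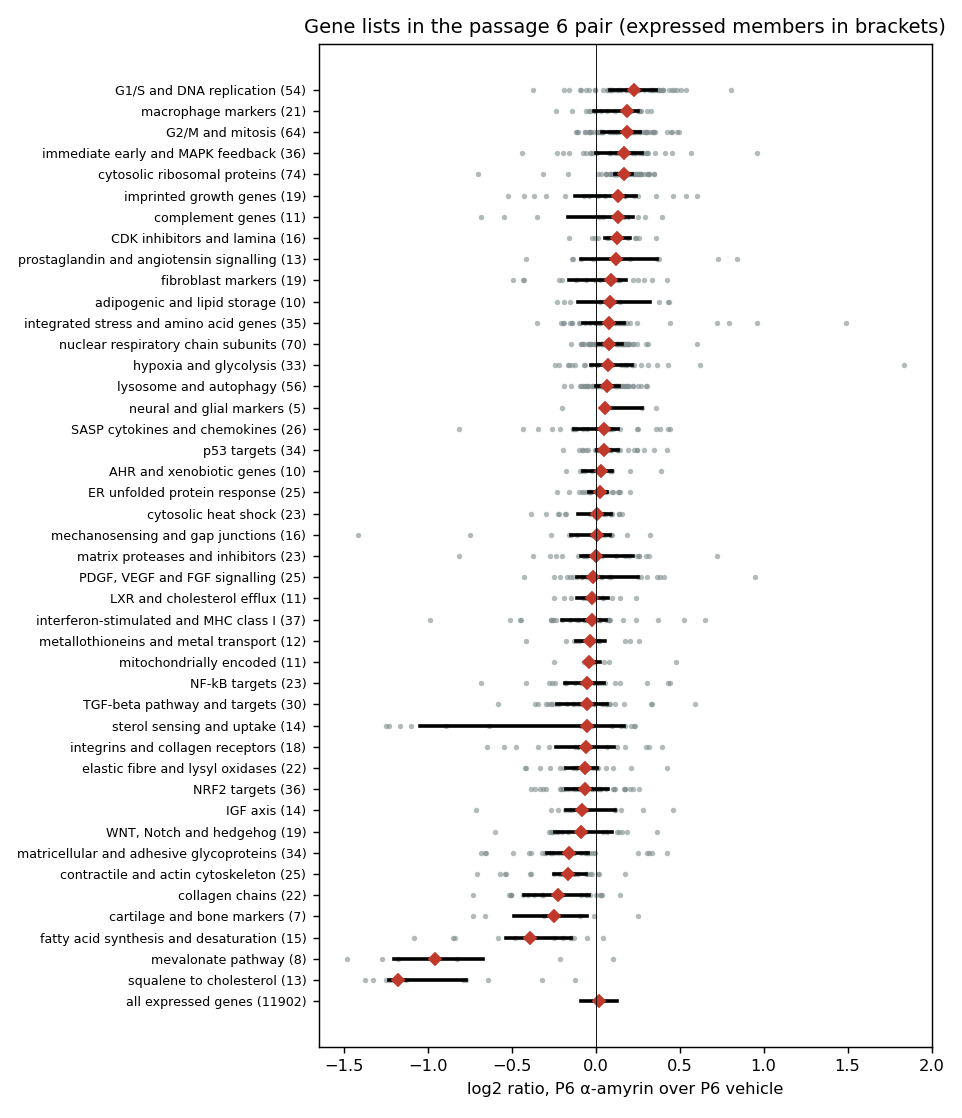
Log2 ratios of P6 α-amyrin over P6 vehicle for the expressed members of each gene list with at least 5 of them (grey points), with the list median (red diamond) and quartiles (black bar), sorted by median, and all 11902 expressed genes at the bottom. The mevalonate list (-0.96) and the squalene-to-cholesterol list (-1.18) stand far to the left, and the other medians lie between -0.39 and 0.23.

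Senescence markers were close to even. Cdkn2a had 116 CPM in P6 α-amyrin and 115 CPM in P6 β-amyrin, against 115 CPM in P6 vehicle, and 17.2, 17.4 and 19.4 CPM in P1 α-amyrin, P1 β-amyrin and P1 vehicle. That gave a log2 ratio of 0.01 (interval -0.07 to 0.09), and the 3 P6 libraries lay together above the 3 P1 libraries. Cdkn1a (p21) was at 0.13, Cdkn2b (p15) at -0.16 and the lamin gene Lmnb1 at 0.26. Cell-cycle genes were slightly higher with α-amyrin in most members: 45 of 54 G1/S and replication genes were above 0 (median 0.23) and 54 of 64 G2/M genes (median 0.18). Over all expressed genes 6601 of 11902 (55.5%) were above 0, with a median of 0.02. Cdc6, a loader of the replicative helicase, was alone past 1.5-fold, at 0.81, on 117 counts in P6 α-amyrin and 83 in P6 vehicle. Mki67, the proliferation marker, was at 0.04 with 96.2 CPM in P6 α-amyrin and 77.7 CPM in P6 β-amyrin, against 93.5 CPM in P6 vehicle. Cytosolic ribosomal protein genes were above 0 in 71 of 74 cases, with a median of 0.17. Their median was 0.11 after centring by transcript length. Among genes at least 2-fold higher in P6 than in P1 β-amyrin, a choice that used neither library of the pair, the 948 had a median ratio of 0.08, and with α-amyrin 2.85% were at least 1.5-fold higher and 0.844% at least 1.5-fold lower. The 469 that were at least 2-fold lower had a median of 0.01, with 2.77% at least 1.5-fold higher and 10.2% at least 1.5-fold lower. Without the lipid lists 438 remained, of which 2.97% were higher and 5.02% lower by that fold. The P6 β-amyrin library also received an amyrin, so a gene moved alike by both amyrins at P6 enters these sets more readily. These shares therefore do not describe passage alone. The 10249 genes within 2-fold between passages had a median of 0.02, with 0.381% higher and 0.332% lower, against 0.773% higher and 0.933% lower over all expressed genes.

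Secreted factors of senescent cells showed few differences of size. The cytokine and chemokine list had 26 expressed members, a median of 0.05 and only Cxcl14 past 1.5-fold. Cxcl14, a chemokine, had 162 CPM in P6 α-amyrin and 216 CPM in P6 β-amyrin, against 286 CPM in P6 vehicle, and 133, 172 and 179 CPM in P1 α-amyrin, P1 β-amyrin and P1 vehicle, a log2 ratio of -0.82 at P6. Ccl2 was at 0.14 and the protease gene Mmp3 at 0.30, while Il6 and Cxcl1 were below 5 CPM in both libraries of the pair. Igfbp2, an IGF-binding protein, was at -0.71, the only 1 of 14 expressed IGF axis genes past 1.5-fold. C3, the central complement component, was at -0.68, while 8 of 11 expressed complement genes were above 0, with a median of 0.13. Mmp12, the macrophage elastase, had 16.3 CPM in P6 α-amyrin and 77.3 CPM in P6 β-amyrin, against 9.86 CPM in P6 vehicle, so its ratio of 0.72 was small beside the level in β-amyrin. Of 21 expressed macrophage markers none passed 1.5-fold with α-amyrin (median 0.19), and Csf1r, the receptor of macrophage growth factor, had 520 CPM in P6 α-amyrin and 240 CPM in P6 β-amyrin, against 573 CPM in P6 vehicle. Interferon-stimulated and MHC class I genes had a median of -0.02 over 37, with Oas2 at -0.99 and Ifit3 at 0.65 on at most 157 counts in either library.

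Agtr2, Penk, Adm and Tgfbr3, grouped here after their values were seen, were among the genes at least 1.5-fold higher with α-amyrin at both passages. Agtr2, the type 2 angiotensin receptor, had 24.1 CPM in P6 α-amyrin and 16.7 CPM in P6 β-amyrin, against 13.4 CPM in P6 vehicle, and 51.0, 20.9 and 14.6 CPM in P1 α-amyrin, P1 β-amyrin and P1 vehicle. Its log2 ratio was 0.84 (interval 0.64 to 1.06) at P6 and 1.79 at P1. Penk, which encodes the enkephalin precursor, had 36.1 CPM in P6 α-amyrin and 29.7 CPM in P6 β-amyrin, against 21.8 CPM in P6 vehicle, and 27.6, 10.6 and 8.63 CPM in P1 α-amyrin, P1 β-amyrin and P1 vehicle. Its ratio was 0.73 (interval 0.56 to 0.90) at P6 and 1.67 at P1. For both genes α-amyrin was highest, β-amyrin intermediate and vehicle lowest at each passage. The vasodilator peptide gene Adm (0.62 at P6, 0.88 at P1) and the TGF-beta co-receptor gene Tgfbr3 (0.59 at P6, 1.08 at P1) had smaller ratios at P6. H19, an imprinted noncoding RNA of fetal growth, had 938 CPM in P6 α-amyrin and 754 CPM in P6 β-amyrin, against 617 CPM in P6 vehicle, and 8508, 6750 and 5768 CPM in P1 α-amyrin, P1 β-amyrin and P1 vehicle. Its ratio was 0.60 at P6 and 0.56 at P1, and its neighbour Igf2 was at 0.46. Angpt2, a vascular growth factor gene, was at 0.95 at P6 and 0.38 at P1, on 132 counts in P6 α-amyrin and 85 in P6 vehicle. The water channel gene Aqp1 (0.80 at P6, 1.24 at P1) and Arhgap20 (0.96 at P6, 1.25 at P1), a GTPase regulator, had 43.5 and 30.5 CPM in P6 α-amyrin, against 24.9 and 15.6 CPM in P6 vehicle, and were picked out after their values were seen.

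The P1 pair shares no library with the P6 pair. Of the 86 genes at least 1.5-fold lower with α-amyrin at P6 that had at least 5 CPM at P1, 72 were below 0 at P1, with a median of -0.26, and 16 were at least 1.5-fold lower there. Over all 11209 genes so measured the P1 median was -0.01, with 51.9% below 0, 119 at least 1.5-fold higher and 96 at least 1.5-fold lower. The 26 genes of the sterol and fatty acid lists had a P6 median of -1.15 and a P1 median of -0.19. At P1, 23 of them were below 0 and 1 was at least 1.5-fold lower. The other 60 had a P6 median of -0.78 and a P1 median of -0.36. At P1, 49 of these were below 0 and 15 were at least 1.5-fold lower. Of 55 genes at least 1.5-fold higher at P6, 39 were above 0 at P1, with a median of 0.29, 16 were at least 1.5-fold higher and 5 at least 1.5-fold lower. The smaller sets past 2-fold at P6 gave a P1 median of -0.01 for the 8 higher genes, of which 4 were above and 4 below 0, and of -0.20 for the 26 lower genes, of which 22 were below 0. Whether the lipid genes and the rest differ was not tested, since each condition has 1 library. Across 10669 genes with at least 5 CPM in all 4 libraries the log2 ratios of the passages had a Pearson correlation of 0.336 and a Spearman correlation of 0.326, given as a description. Both pairs share the trend with transcript length, since the P1 median was 0.05 in the bin of shortest and -0.06 in the bin of longest transcripts.

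**Figure D5:**
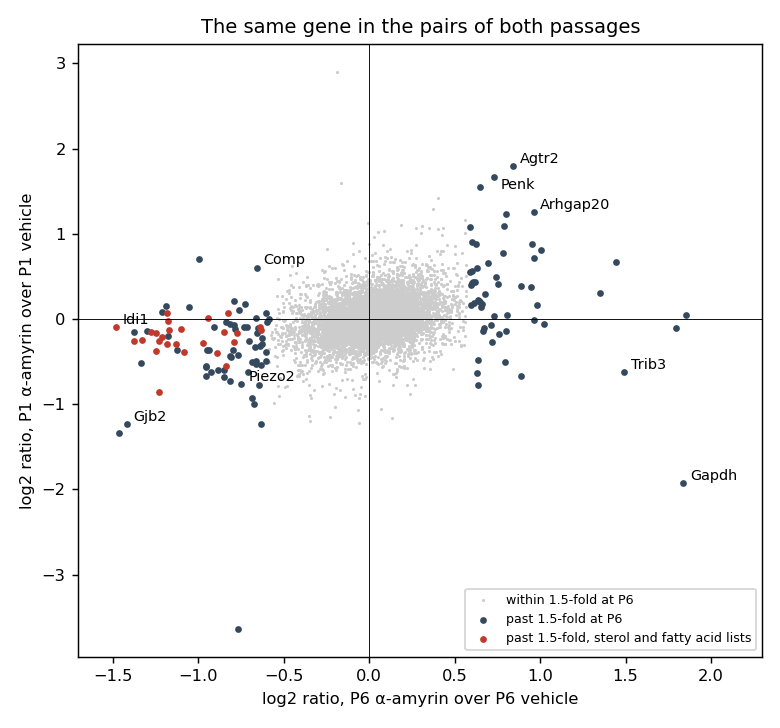
Log2 ratio of P1 α-amyrin over P1 vehicle (vertical) against that of P6 α-amyrin over P6 vehicle (horizontal) for 11209 genes with at least 5 CPM in both pairs, with genes past 1.5-fold at P6 in dark blue or, for the sterol and fatty acid lists, red. The red points lie far left and mostly a little below 0 on the vertical axis, with a P1 median of -0.19. Gjb2, at -1.42 and -1.24, and Agtr2, at 0.84 and 1.79, depart further from 0 on the vertical axis.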

How the data were processed

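Poly(A) RNA of mouse embryonic fibroblasts was measured in 6 libraries, 1 per condition, made with a directional kit per the labels' protocols. Per the submitters' processing notes, reads were handled on mm10 with HISAT2 2.1.0 and featureCounts 1.6.3, beside SAMtools 1.9, FastQC 0.11.7 and Trimmomatic 0.38; no settings are given. The count table deposited by the authors holds raw whole numbers for 55487 genes. How the deposited FPKM values were computed is not stated. FPKM entered only as an alternative.

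Counts of the 16962 genes that passed filterByExpr (edgeR 4.0.16 in R 4.3.3, passage as the group) were scaled by TMM over the 6 libraries and written as CPM. Log2 ratios used a prior count of 2. With 1 library a side the pair was described by size: at least 2-fold or 1.5-fold, with CPM at least 5 in either library. Exact 95% intervals came from the 2 counts of a gene. Total counts ran from 18798418 to 28752332, and the shallowest library was P6 α-amyrin. Transcript lengths came from GENCODE. Simulated counts with known changes were used to check the calculation.

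The gene lists (47, marker lists included) and the choice of comparison were made with earlier results of these data known. Genes were named by rule: the 15 highest and 15 lowest ratios past 2-fold, up to 4 members per list with the largest ratio in size, and a short list of sterol, senescence and matrix genes. Other members of the sterol, fatty acid, stress and efflux lists, and families of near-identical copies, were named after their values were seen. Alternatives changed the scaling (library totals, DESeq2 1.42.0 size factors, TMM over the pair), the prior count, the filter, the CPM minimum and the unit. Some genes of the sterol lists are not reported here by name.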

Additional observations from a re-analysis of the deposited data

Results flagged for a closer look

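For 3 genes described above the ratio of α-amyrin over vehicle was past 1.5-fold in opposite directions at the 2 passages. This was not tested because each condition had 1 library. Only genes named by rule and members of some lists were searched. Over all genes with at least 5 CPM in both pairs, 5 of 55 at least 1.5-fold higher at P6 were at least 1.5-fold lower at P1. Of 86 at least 1.5-fold lower at P6, 2 were at least 1.5-fold higher at P1. Trib3 had a log2 ratio of 1.49 at P6 and -0.62 at P1. Gapdh, whose reads are uncertain because of its pseudogenes, had 1.84 at P6 and -1.93 at P1. Comp, a cartilage matrix gene, had -0.66 at P6 and 0.60 at P1, on 106 counts in P6 α-amyrin and 211 in P6 vehicle.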

How the results depend on the processing

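No paired analysis was possible because the labels give each condition 1 library and no replicate numbers; a fit of treatment and passage over all 6 libraries, which averages the passages, was not run. Counts at 2-fold (14 higher, 29 lower) and 1.5-fold (92 higher, 111 lower) stayed within 1.5 times under the other scalings, prior counts of 0.5 and 10, no filter, and without pseudogenes (added after seeing the data). With the deposited FPKM they were 41 and 47 at 2-fold and 192 and 183 at 1.5-fold. With CPM at least 1 they were 103 and 122, and 435 and 467. With CPM at least 20, where fewer genes enter, they were 2 and 17, and 21 and 42. Where the whole counting interval had to pass the fold they were 8 and 16, and 22 and 52. The P1 median of the genes at least 2-fold higher at P6 was 0.22 with FPKM, 0.22 with CPM at least 1 and -0.81 with CPM at least 20, against -0.01 in the report. For genes at least 1.5-fold higher it was 0.56 with CPM at least 20. For genes at least 2-fold lower it was -0.10 with FPKM, and for those at least 1.5-fold lower -0.10 with FPKM and -0.15 with CPM at least 1. Of 3612 gene ratios under alternatives, 47 moved by more than 0.5 of the width of their counting interval. A reversal was counted only for genes past 1.5-fold with CPM at least 5, so ratios near 0 could change sign uncounted. By that rule 1 reversed, Gm10767 at -0.30 with FPKM against 1.86, and the cause was not tested. Of 440 list medians 435 moved by less than 0.1, and none with a size of at least 0.1 changed sign. With 1 library a side and 18798418 counts in P6 α-amyrin, ratios of genes near 5 CPM carry wide counting intervals.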
